A study of Mus musculus with 13 samples.

Results

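Translation initiation, elongation and release factors were examined as a group in mouse RNA that had been hybridised to two-colour arrays. The members are the genes whose probes carry exactly 1 symbol that begins with Eif1 to Eif6 or with Eef1 or Eef2, together with Etf1 and Gspt1. There were 51 such genes on 57 probes, out of 9669 genes with a single symbol and 20205 probes in all. They comprise 39 genes with symbols Eif, 10 with symbols Eef and 2 release factors, and 6 genes had 2 probes each, which were averaged. The 7 probes that name a member together with other genes were left out.

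Each array compared total RNA of a source named NT1 with total RNA of a source named TBV, and the ratio of NT1 over TBV on the log2 scale is the quantity given throughout. The title of the series writes Sall4 and -/- before NT1, and the labels state neither a cell type, an age nor a treatment for either source. The 13 arrays came from 4 pairs of RNA sources: 5 arrays of NT1p14 with TBVp13, 4 of NT1p12 with TBVp12, and 2 each of NT1 1 with TBV2 and of NT1p12 with TBVp13, the number after p being read as the passage. NT1 was in the Cy5 dye on arrays 1, 2 and 4 of NT1p14 with TBVp13, on arrays 1 and 2 of NT1p12 with TBVp12, and on array 1 of the other pairs, and ratios from the remaining arrays were multiplied by -1. As far as the labels tell, NT1 and TBV are 1 line each, and arrays of 1 pair are technical repeats of the same RNA.

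Protein synthesis begins when eIF2 brings the initiator tRNA to the small ribosomal subunit, eIF1, eIF1A and eIF3 hold that subunit ready, and the eIF4 factors bind the mRNA cap and unwind the leader. Elongation follows, in which eEF1A delivers each aminoacyl-tRNA, the eEF1B subunits recharge it with GTP, and eEF2 moves the ribosome along, until eRF1 (Etf1) and eRF3a (Gspt1) release the finished chain. Many mRNAs of elongation factors and ribosomal proteins start with a C and a run of pyrimidines, the 5′ terminal oligopyrimidine tract, through which mTORC1 signalling controls their translation.

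The transcript starts of a few members are shown because this tract is a sequence feature known from elongation factor mRNAs. Each window runs from 5 bases before to 25 bases after the start in RefSeq (GRCm38.p6), on the transcribed strand, and capitals mark a C followed by at least 5 further C or T.
Eef1a1, chr9:78481700-78481729, minus strand: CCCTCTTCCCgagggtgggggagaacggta
Eef2, chr10:81176626-81176655, plus strand: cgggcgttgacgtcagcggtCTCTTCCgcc
Eef1a2, chr2:181156991-181157020, minus strand: tctgcgttctcgctcactggttCTCTCCCT
Eif2s3x, chrX:94212627-94212656, minus strand: ttttCCTTTTCTCTCCgagcaagatggctg
Eif3f, chr7:108934410-108934439, plus strand: gCTCTCTCTCTTTCTCggcaagatggcttc
Eif3a, chr19:60790669-60790698, minus strand: gcggcggcgctgccgccgcgagggaatcac
Eif1ax, chrX:159372173-159372202, plus strand: agggcggggagaagccccgcccgctgccgc
The runs of Eef1a1, Eif2s3x and Eif3f cover the start itself, and those of Eef2 and Eef1a2 begin further inside. The windows of Eif3a and Eif1ax hold none, nor do those of Eef1b2, Eef1aknmt, Eef2k and Eef2kmt, which are not printed. Of 39 members with a RefSeq start, 11 (28.2%) had such a run in a window, against 22.9% of 27025 genes. The run was sought on the transcribed strand only, and a match in these letters is a description, not a measured tract.

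The precision of the values sets how the results can be read. Arrays held from 14314 to 18381 values. Of the 619 values of member probes, 193 (31.2%) were whole numbers, against 19.3% of all 220028 values, so a listed 0, 1 or -1 can stand for a range of ratios. Over single arrays the whole-number share of all values ran from 2.40% to 40.4%. No source used here gives the numerator of the deposited ratio, so the direction of all signs together is unsettled. In addition, the pair values of NT1p14 with TBVp13 correlated below 0 with those of NT1p12 with TBVp12 (r = -0.49 over 14956 features). Single arrays of the same dye orientation had r between -0.36 and 0.24, and those of opposite orientation between -0.55 and 0.01, after signs were set to NT1 over TBV. With NT1 1 with TBV2, NT1p14 with TBVp13 had r = 0.13 and NT1p12 with TBVp12 had r = -0.04, so these values do not settle which pair, if either, is turned. The main results that involve NT1p14 with TBVp13 are also given with the signs of its arrays turned. Values of single genes and of other gene lists that involve this pair are mostly given as read only.

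The question of the first comparison was whether NT1 and TBV differ in translation factors, over the 3 pairs that share no RNA. No translation factor passed the test (limma, adjusted p under 0.05): 0 of 41 measured members, against 0% of 14663 features (0 calls, with a smallest adjusted p of 1.00). An unadjusted p under 0.05 was seen for 1 of 41 members, Eif5b, and for 153 of 14663 features. Evenly spread p-values would give about 733 features, so this test gave fewer small p-values than that. The members' median log2 ratio was 0.25 in NT1p14 with TBVp13 (45 members, 35 above 0), -0.22 in NT1p12 with TBVp12 (46 members, 13 above 0) and 0.004 in NT1 1 with TBV2 (41 members, 21 above 0). Over all features the medians were 0.01, 0.01 and -0.001. When the signs of NT1p14 with TBVp13 were turned, again 0 members and 0 features passed. An unadjusted p under 0.05 was then seen for 7 of 41 members and 987 of 14663 features. The members' median over the 3 pairs was -0.17 with signs turned, against 0.01 as read.

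**Figure D1:**
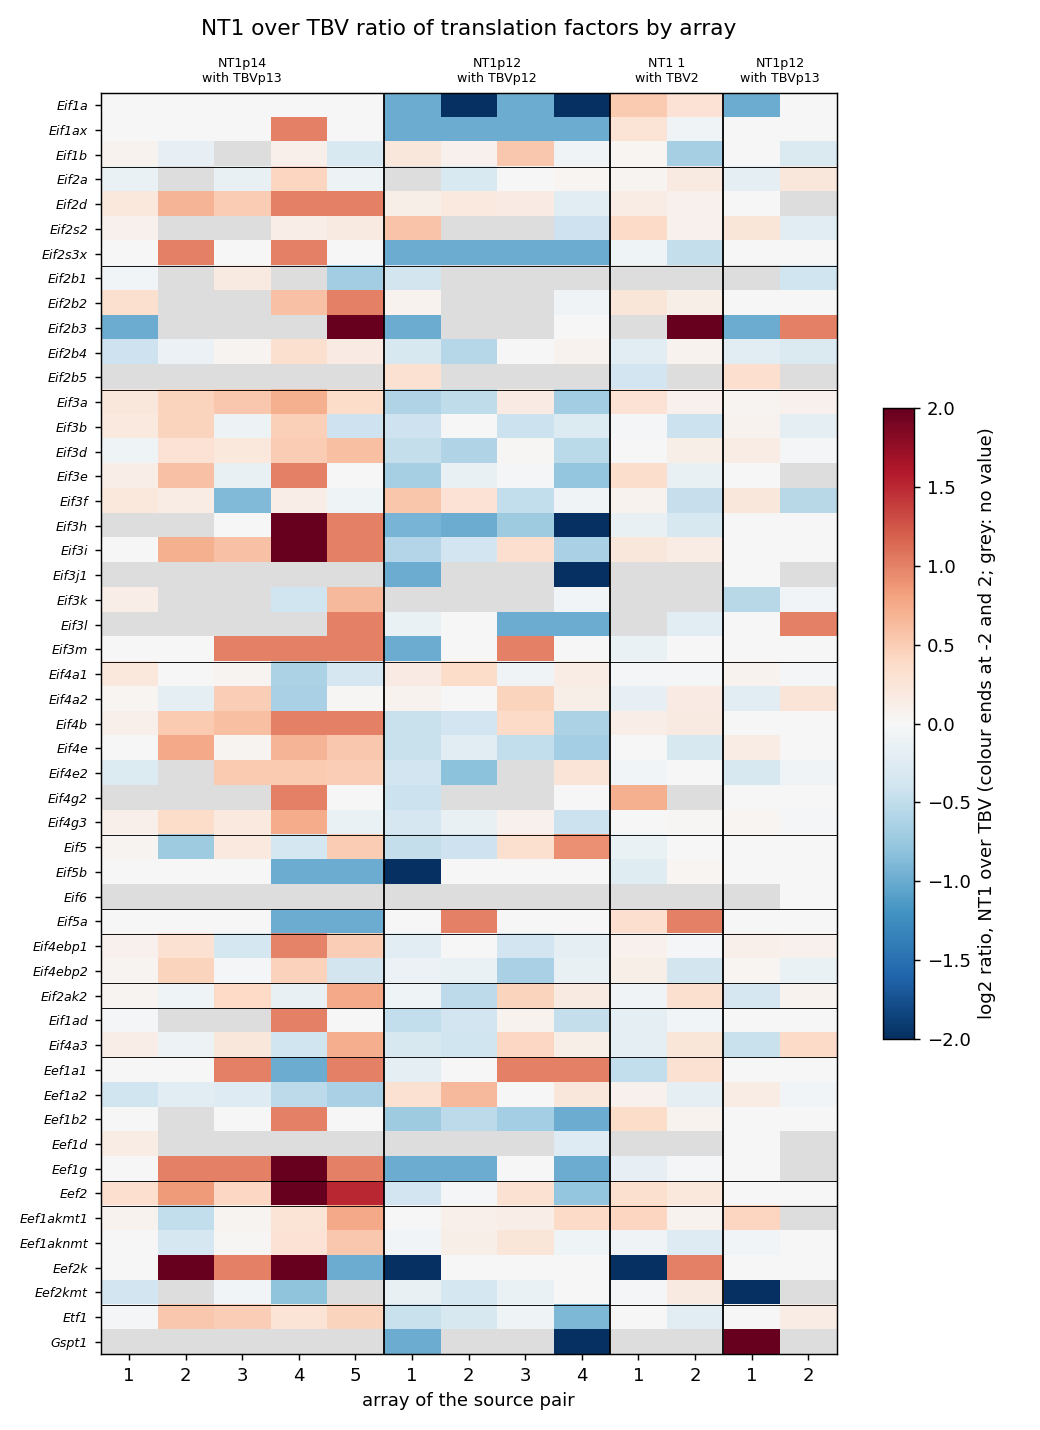
Log2 ratio of NT1 over TBV for each translation factor (rows, grouped by role) on each of 13 arrays (columns, grouped by source pair). Colour runs from -2 to 2 with larger sizes shown at the ends, and grey marks no value. Red prevails in NT1p14 with TBVp13 and blue in NT1p12 with TBVp12.

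Of the 41 measured members, 4 lay above 0 in all 3 pairs, where 9.06% of features did, and 1 lay below 0 in all 3, where 5.44% of features did. Those above were Eef1akmt1, a methyltransferase of eEF1A, Eif2ak2 (PKR, a kinase of eIF2 alpha), Eif2d, which can deliver tRNA to the ribosome, and Eif2s2, the beta subunit of eIF2. Eif5b, the GTPase that joins the ribosomal subunits, was the one below. As read, the count above 0 was near the share of all features and the count below 0 was under it. The array values of these genes are given for their shared sign, not because any was called. With signs turned, 2 members (Eif4a2 and Eif5a) lay above 0 in all 3 pairs, 4.88% against 15.97% of features, and 11 lay below, 26.8% against 14.5% of features.

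Eif2s2 had log2 ratios of 0.08, 0.14 and 0.18 on arrays 1, 4 and 5 of NT1p14 with TBVp13, 0.58 and -0.42 on arrays 1 and 4 of NT1p12 with TBVp12, and 0.38 and 0.08 in NT1 1 with TBV2. Its mean was 0.15 ± 0.08 (SD, n = 3 pairs), and the arrays of NT1p12 with TBVp12 lay on both sides of 0. Eif2d was at 0.21, 0.69, 0.51, 1 and 1 in NT1p14 with TBVp13, at 0.11, 0.20, 0.16 and -0.21 in NT1p12 with TBVp12, and at 0.15 and 0.09 in NT1 1 with TBV2, a mean of 0.29 ± 0.35. Of these 11 arrays, 10 were above 0.

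Eif2ak2 had log2 ratios of 0.05, -0.09, 0.39, -0.14 and 0.76 in NT1p14 with TBVp13, against -0.08, -0.52, 0.44 and 0.18 on the arrays of NT1p12 with TBVp12, and -0.07 and 0.32 in NT1 1 with TBV2. Its mean was 0.13 ± 0.13 (SD, n = 3 pairs). All 5 arrays with TBV in Cy5 gave values above 0 in these pairs and 5 of the 6 with NT1 in Cy5 gave values below 0, so the sign followed the dye. From arrays with NT1 in Cy5 alone the mean was -0.15, and from those with TBV in Cy5 alone it was 0.40.

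Eif5b stood at 0, 0, 0, -1 and -1 in NT1p14 with TBVp13, at -3, 0, 0 and 0 in NT1p12 with TBVp12, and at -0.24 and 0.04 in NT1 1 with TBV2. The mean was -0.42 ± 0.33 (SD, n = 3 pairs; limma, unadjusted p = 0.049, adjusted p = 1.00). It rests on 3 arrays at -1 or below, while the other 6 arrays of those pairs read 0. Eef1akmt1 averaged 0.19 ± 0.05 over the same pairs, with array values of 0.06, -0.49, 0.05, 0.28 and 0.75 in NT1p14 with TBVp13, against -0.01, 0.10, 0.14 and 0.39 on the arrays of NT1p12 with TBVp12, and 0.43 and 0.07 in NT1 1 with TBV2.

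The second comparison asked whether the NT1 over TBV ratio differed between the 2 pairs with the most arrays. In limma over 9 arrays with dye orientation as a term, 11 of 39 members were higher in NT1p14 with TBVp13 than in NT1p12 with TBVp12 (28.2%, against 5.6% of 14185 features), 1 was lower (against 5% of features) and 27 did not pass at an adjusted p under 0.05. An unadjusted p under 0.05 was seen for 16 of the 39 members and for 36.8% of features (5216 of 14185). The higher ones span start-codon scanning (Eif1a, Eif1ax), tRNA delivery (Eif2s3x), eIF3 (Eif3a, Eif3d, Eif3h), cap binding and unwinding (Eif4b, Eif4e), eEF1B (Eef1b2, Eef1g) and termination (Etf1). The lower one was Eef1a2, the eEF1A isoform typical of muscle and neurons. The median difference was 0.48 over the 39 members and -0.02 over all features.

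This test measures the spread between repeat arrays of 2 RNA pairs, not between new preparations, and its calls depend on single arrays and on the signs. Whole numbers can hide spread between arrays, and 9 of the members called higher hold them. For those members the SE, the p-value and a lack of overlap describe the listed values only. The counts of members called higher and lower fell to 0 without array 2 or 5 of NT1p14 with TBVp13 and without array 1, 2 or 4 of NT1p12 with TBVp12, as did the count over all features. Without array 3 or 4 of NT1p14 with TBVp13, 7 and 4 members were called higher. In the 5 fits without a call the sizes moved little: the difference ran from 1.29 to 1.71 for Eif1a, from 0.76 to 0.95 for Eif3a and from -0.77 to -0.62 for Eef1a2, with limma adjusted p-values of 0.081 to 0.14. When the signs of NT1p14 with TBVp13 were turned, 0 members and 0 features passed.

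**Figure D2:**
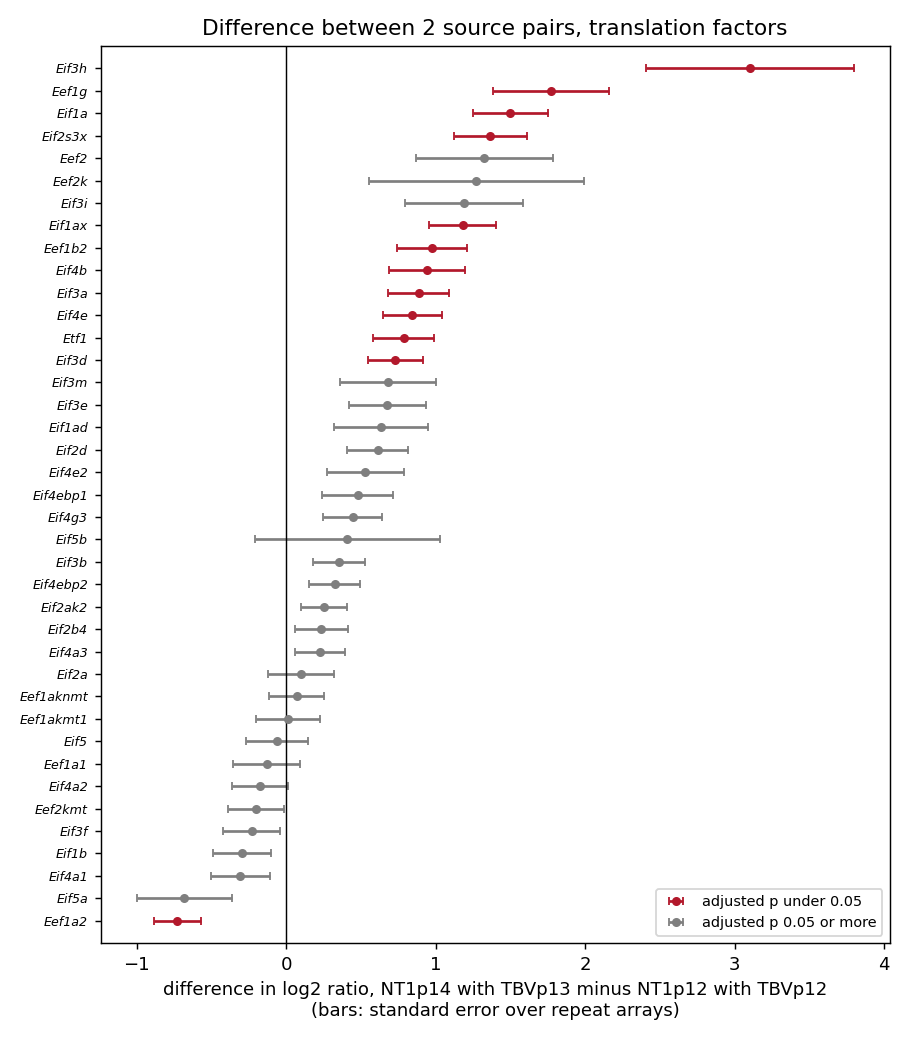
Difference in log2 ratio of NT1 over TBV, NT1p14 with TBVp13 minus NT1p12 with TBVp12, for the 39 members tested, with bars for the standard error over repeat arrays. Red marks an adjusted p under 0.05. Eif3h at 3.10 stands farthest to the right and Eef1a2 at -0.73 farthest to the left.

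Every array of NT1p14 with TBVp13 lay above every array of NT1p12 with TBVp12 for 10 of the 39 members (25.6%, against 7.03% of features), and below for 1 (against 6.69% of features). With signs turned the counts were 2 and 1, against 1.07% and 0.966% of features. In pair values, 26 of 43 members (60.5%) were above 0 in NT1p14 with TBVp13 and below 0 in NT1p12 with TBVp12, against 33.3% of 14956 features. The members were also split by the precision of their values, a split that is not free of the size of the ratios. Of 19859 values of size 1 or more in the whole table, only 79 had decimals. A member without whole numbers is thus mostly one with small ratios. The 24 members without a whole number had a median difference of 0.16 (18 tested, 2 higher and 1 lower). For the 27 members with whole numbers it was 0.84 (21 tested, 9 higher). Of all features, not split in this way, 5.6% were called higher and 5% lower. Because the split follows the size of the ratios, no conclusion is drawn from the larger median with whole numbers. Whether the loss of decimals plays a part in the difference was not tested.

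**Figure D3:**
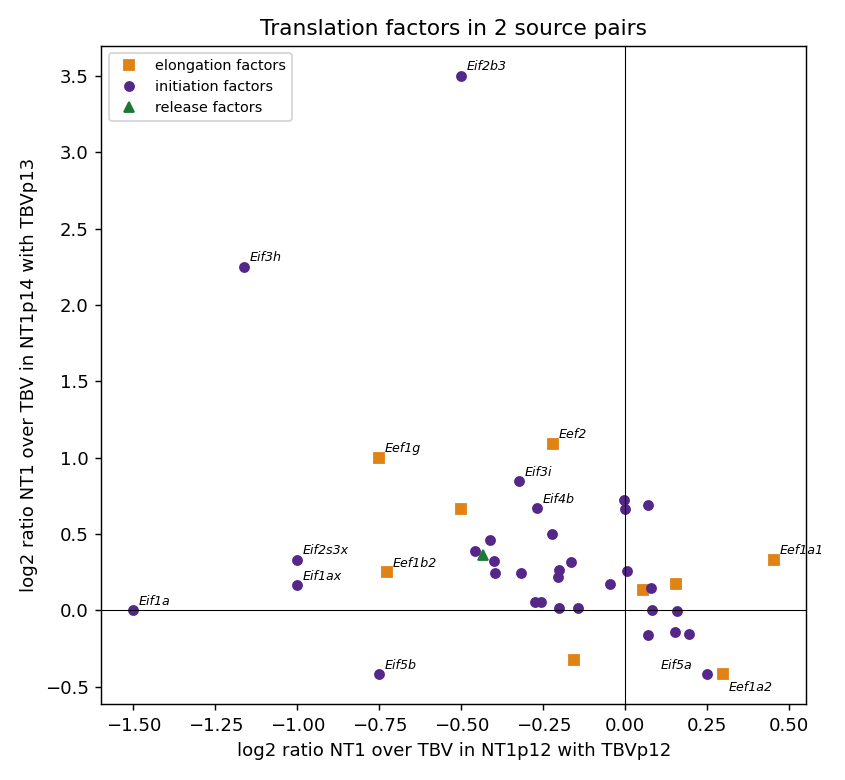
Log2 ratio of NT1 over TBV of each member in NT1p14 with TBVp13 (vertical axis) and in NT1p12 with TBVp12 (horizontal axis), by class. Of 43 points, 26 lie in the upper left, above 0 in the first pair and below 0 in the second.

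Among the factors that prepare the small subunit, both eIF1A genes were called. Eif1a was at 0 on all 5 arrays of NT1p14 with TBVp13, at -1, -2, -1 and -2 in NT1p12 with TBVp12, and at 0.52 and 0.28 in NT1 1 with TBV2. The groups did not overlap as listed, and the difference was 1.5 (SE 0.25, limma adjusted p = 0.036). In the first 2 pairs the values of Eif1a and of Eif1ax were whole numbers only, so their spread between arrays is not known. Eif1ax was at 0, 0, 0, 1 and 0 in NT1p14 with TBVp13, at -1 on all 4 arrays of NT1p12 with TBVp12, and at 0.28 and -0.07 in NT1 1 with TBV2, a difference of 1.18 (SE 0.22, adjusted p = 0.039). These proteins are near-identical paralogues, and the probe sequences were not used here, so shared signal cannot be told apart. Eif1b, a paralogue of eIF1, had a difference of -0.29 (SE 0.19, adjusted p = 0.29).

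Eif2s3x, the X-linked gene of the eIF2 gamma subunit whose start is shown above, was at 0, 1, 0, 1 and 0 in NT1p14 with TBVp13, at -1 on all 4 arrays of NT1p12 with TBVp12, and at -0.08 and -0.48 in NT1 1 with TBV2. The difference was 1.36 (SE 0.24, limma adjusted p = 0.038), and the groups did not overlap as listed, again in whole numbers. Eif2d differed by 0.61 (SE 0.20, adjusted p = 0.071) and Eif2a, an alternative tRNA carrier, by 0.10. The 5 eIF2B genes, whose complex reloads eIF2 with GTP, were measured unevenly: Eif2b4 had values on all 13 arrays, Eif2b2 on 9, Eif2b3 on 7, Eif2b1 on 5 and Eif2b5 on 3. Eif2b4, the only one with enough values for the test, differed by 0.24 (SE 0.18, adjusted p = 0.35). The 7 values of Eif2b3 were all whole numbers, from -1 to 8.

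The eIF3 complex, the scaffold that links the small subunit to the eIF4 factors, had 11 genes on the arrays and 8 tested. Of these 8 genes, 3 were higher in NT1p14 with TBVp13, against 5.6% of features. The median difference of the complex was 0.71. Eif3a, the largest subunit, had 0.23, 0.45, 0.54, 0.72 and 0.37 in NT1p14 with TBVp13, against -0.60, -0.51, 0.16 and -0.70 on the arrays of NT1p12 with TBVp12, and 0.29 and 0.09 in NT1 1 with TBV2. All its values carried decimals, and even the highest array of NT1p12 with TBVp12 (0.16) lay below the lowest of NT1p14 with TBVp13 (0.23), with a difference of 0.89 (SE 0.20, limma adjusted p = 0.043). Eif3d, a subunit that can itself bind a cap, also kept its decimals and differed by 0.73 (SE 0.19, adjusted p = 0.047). Eif3h had the highest estimate, 3.10 (SE 0.69, adjusted p = 0.045), but NT1p14 with TBVp13 gave it 3 values only, 0, 4 and 1. Eif3i differed by 1.19 (SE 0.40, adjusted p = 0.072) and Eif3f by -0.23 (SE 0.19, adjusted p = 0.39).

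The eIF4 group had 6 genes tested and 2 higher, against 5.6% of features, with a median difference of 0.49. Eif4b, which assists the helicase eIF4A, was at 0.10, 0.52, 0.61, 1 and 1 in NT1p14 with TBVp13, at -0.45, -0.38, 0.39 and -0.63 in NT1p12 with TBVp12, and at 0.13 and 0.18 in NT1 1 with TBV2. Array 3 of NT1p12 with TBVp12 lay among the values of the other pair, and the difference was 0.94 (SE 0.25, limma adjusted p = 0.0496). Eif4e, the cap-binding protein, had -0.003, 0.76, 0.06, 0.69 and 0.53 in NT1p14 with TBVp13, against -0.44, -0.22, -0.50 and -0.67 on the arrays of NT1p12 with TBVp12, and 0.01 and -0.33 in NT1 1 with TBV2, a difference of 0.84 (SE 0.20, adjusted p = 0.044). Its 2 probes disagreed in size. The probe without whole numbers gave 0.11 in NT1p14 with TBVp13 and -0.13 in NT1p12 with TBVp12, and the other gave 0.67 and -0.79.

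Eif4a1, the main helicase, had 0.21, -0.001, 0.05, -0.64 and -0.34 in NT1p14 with TBVp13, against 0.17, 0.36, -0.07 and 0.15 on the arrays of NT1p12 with TBVp12, and -0.03 and -0.04 in NT1 1 with TBV2. The groups overlapped, and the difference was -0.31 (SE 0.20, limma adjusted p = 0.29). Eif4g2, a scaffold related to eIF4G that does not bind eIF4E, had values on 7 arrays: 1 and 0 in NT1p14 with TBVp13, against -0.43 and -0.01 on the arrays of NT1p12 with TBVp12, 0.71 in NT1 1 with TBV2, and 0 and 0 in NT1p12 with TBVp13. Eif4ebp1, the mTORC1-regulated inhibitor of eIF4E, stood at 0.09, 0.30, -0.36, 0.99 and 0.50 in NT1p14 with TBVp13, at -0.21, -0.003, -0.39 and -0.20 in NT1p12 with TBVp12, and at 0.09 and -0.02 in NT1 1 with TBV2. Its difference of 0.48 (SE 0.24, adjusted p = 0.18) did not pass.

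Factors of the last initiation steps and eIF5A showed no call. Eif5, which makes eIF2 hydrolyse its GTP, had 0.05, -0.71, 0.19, -0.35 and 0.50 in NT1p14 with TBVp13, and -0.48, -0.42, 0.32 and 0.91 in NT1p12 with TBVp12, with groups that overlapped throughout. Its 2 probes went opposite ways, with -0.33 and 0.34 in NT1p14 with TBVp13 and 0.56 and -0.39 in NT1p12 with TBVp12. Eif5a, a hypusine-bearing factor that helps elongation through difficult peptide bonds, was at 0, 0, 0, -1 and -1 in NT1p14 with TBVp13, at 0, 1, 0 and 0 in NT1p12 with TBVp12, and at 0.34 and 1 in NT1 1 with TBV2. Its difference was -0.68 (SE 0.32, limma adjusted p = 0.16). Eif6, which keeps large subunits apart from small ones, had 1 value, -0.01 in NT1p12 with TBVp13.

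Among the elongation factors 2 subunits of eEF1B were higher and an eEF1A isoform was lower. Eef1g, the eEF1B gamma subunit, was at 0, 1, 1, 2 and 1 in NT1p14 with TBVp13, at -1, -1, 0 and -1 in NT1p12 with TBVp12, and at -0.17 and -0.03 in NT1 1 with TBV2, a difference of 1.77 (SE 0.39, limma adjusted p = 0.039). The pairs touched at 0. Eef1b2, the nucleotide exchange subunit, was at 0, 0, 1 and 0 on the 4 measured arrays of NT1p14 with TBVp13, at -0.71, -0.52, -0.67 and -1 in NT1p12 with TBVp12, and at 0.36 and 0.07 in NT1 1 with TBV2, a difference of 0.98 (SE 0.23, adjusted p = 0.046). Eef1d, a further exchange subunit, had values on 3 arrays, 0.15 in NT1p14 with TBVp13, against -0.26 on the arrays of NT1p12 with TBVp12, and -0.001 in NT1p12 with TBVp13.

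Both eEF1A genes carry a run near their starts, and neither was called higher. Eef1a1, the widely used isoform, was at 0, 0, 1, -1 and 1 in NT1p14 with TBVp13, at -0.19, 0, 1 and 1 in NT1p12 with TBVp12, and at -0.49 and 0.31 in NT1 1 with TBV2. Its groups overlapped, with a difference of -0.13 (SE 0.22, limma adjusted p = 0.69). Eef1a2 was at -0.39, -0.23, -0.26, -0.52 and -0.65 in NT1p14 with TBVp13, at 0.30, 0.65, 0.01 and 0.23 in NT1p12 with TBVp12, and at 0.08 and -0.20 in NT1 1 with TBV2, all with decimals. Every array of NT1p14 with TBVp13 was below every array of NT1p12 with TBVp12, and the difference was -0.73 (SE 0.16, adjusted p = 0.039).

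Eef2, the translocase, had 0.33, 0.85, 0.41, 2.5 and 1.5 in NT1p14 with TBVp13, against -0.38, -0.04, 0.30 and -0.77 on the arrays of NT1p12 with TBVp12, and 0.32 and 0.22 in NT1 1 with TBV2. The first 2 pairs did not overlap, yet the difference of 1.32 (SE 0.46, limma adjusted p = 0.078) did not pass. Its 2 probes ran alike, at 0.83 and 1.36 in NT1p14 with TBVp13 and -0.16 and -0.28 in NT1p12 with TBVp12. Eef2k, the kinase that switches eEF2 off, had only whole numbers, 0, 2, 1, 2 and -1 in NT1p14 with TBVp13, against -2, 0, 0 and 0 on the arrays of NT1p12 with TBVp12, and -2 and 1 in NT1 1 with TBV2, and its difference of 1.27 (SE 0.72, adjusted p = 0.22) did not pass either. The methyltransferase genes Eef1akmt1, Eef1aknmt and Eef2kmt differed by 0.01, 0.07 and -0.20, and none was called.

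Of the release factors, Etf1 was at -0.03, 0.54, 0.49, 0.27 and 0.44 in NT1p14 with TBVp13, at -0.45, -0.32, -0.08 and -0.90 in NT1p12 with TBVp12, and at 0.002 and -0.22 in NT1 1 with TBV2. The difference was 0.79 (SE 0.20, limma adjusted p = 0.048), and the groups did not overlap. It came from 1 of its 2 probes, which held whole numbers and gave 0.83 in NT1p14 with TBVp13 and -0.97 in NT1p12 with TBVp12, where the probe without whole numbers gave -0.10 and 0.10. Gspt1 had 3 values, -1 and -6 in NT1p12 with TBVp12 and 5 in NT1p12 with TBVp13.

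The third comparison set elongation against initiation factors. From all probes and both dye orientations, the medians of the 2 classes lay close together in every pair. In NT1p14 with TBVp13 they were 0.25 for elongation and 0.24 for initiation factors (9 and 35 genes). In NT1p12 with TBVp12 they were -0.16 and -0.22 (9 and 35 genes), and in NT1 1 with TBV2 -0.06 and 0.02 (9 and 31 genes). Elongation minus initiation was 0.01, 0.07 and -0.08 in these pairs, and -0.0003 from the means over the pairs, with an SD of 0.08 (n = 3 pairs). Single arrays ranged more widely, from -0.22 on array 4 to 0.48 on array 5 of NT1p14 with TBVp13, and from 0.01 to 0.27 in NT1p12 with TBVp12. Once the signs of NT1p14 with TBVp13 were turned, the value over the 3 pairs was 0.09.

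In the difference between the 2 larger pairs, 2 of 9 elongation factors were higher and 1 was lower, with a median of 0.07. Of 29 initiation factors 8 were higher and 0 lower, with a median of 0.48, beside 5.6% of features higher and 5% lower. The elongation class is mixed: the median was 0.42 over 4 genes of the eEF1 complex and 0.04 over 4 modifying enzymes, and Eef2 stood at 1.32. Whether the shares of the 2 classes differ was not tested. On the arrays of NT1p12 with TBVp13, whose 2 sources recur in other pairs, both class medians were 0, and 29 of 54 and 24 of 47 member probe values were whole numbers. There Eif3a was at 0.05 and 0.08, Eif4e at 0.15 and -0.01, Eef1a2 at 0.15 and -0.06, and Eif2ak2 at -0.33 and 0.07, while Eif1ax, Eif2s3x, Eif3h, Eif4b, Eef1a1, Eef1b2, Eef2, Eef2k, Eif5, Eif5a and Eif5b read 0 on both arrays and Eif1a read -1 and 0. Etf1 was at 0.002 and 0.15, Eif2s2 at 0.24 and -0.23, Eif4a1 at 0.07 and -0.02, and Eif4ebp1 at 0.11 and 0.09. Eef1g and Eif2d had 1 value each, both listed at 0, and Eef1akmt1 had 1 value of 0.43.

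**Figure D4:**
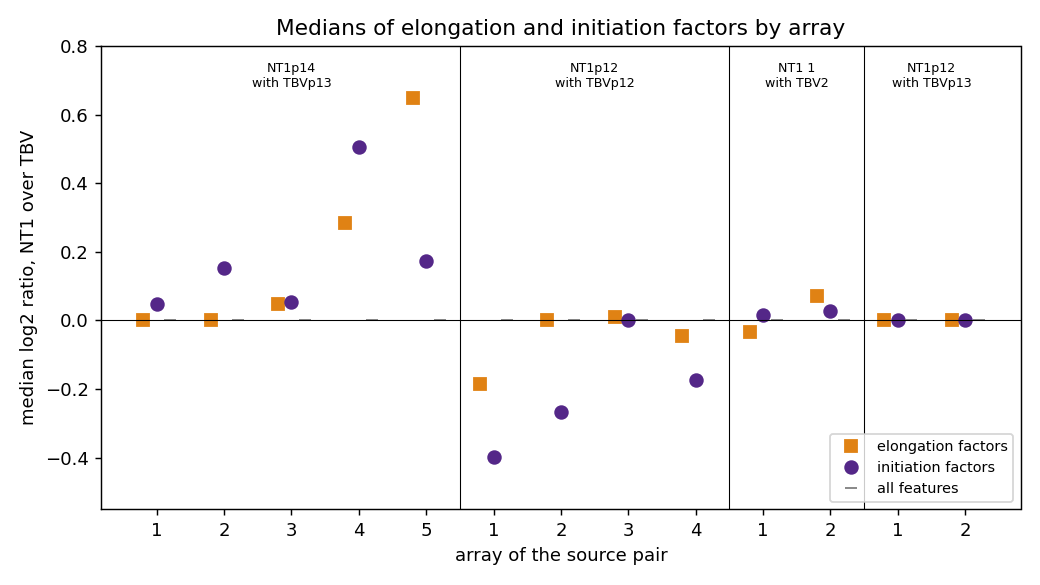
Median log2 ratio of NT1 over TBV on each array for elongation factors (squares), initiation factors (circles) and all features (dashes, at or near 0 after centring). Initiation factors were above 0 on all 5 arrays of NT1p14 with TBVp13, up to 0.51, and below 0 on 3 of 4 arrays of NT1p12 with TBVp12, down to -0.40.

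The same difference was set beside the start windows. Members with a run had a median of 0.63 (7 tested, 3 past the threshold in either direction). Past it were Eif2s3x and Eif4b as higher and Eef1a2 as lower. Members without a run had a median of 0.34 (24 tested, 5 past it). Those past it were Eef1b2, Eif1ax, Eif3a, Eif3d and Eif4e, all higher. Over all features, 5.6% were past the threshold as higher and 5% as lower. Eef1a1, Eef1a2 and Eef2, printed above with their runs, differed by -0.13, -0.73 and 1.32, so members with a run lay on both sides of 0.

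Other parts of the translation machinery were listed for comparison, beside 5.6% of all features called higher and 5% called lower in the same difference. Genes with symbols of cytosolic ribosomal proteins, including like-named ones such as Rpl7l1, had a median difference of 1.09. Their pair medians were 0.42, -0.43 and 0.10. Of 37 tested, 8 were higher (Rpl19, Rpl32, Rpl36a, Rpl7l1, Rplp2, Rps13, Rps25 and Rps4x) and 0 lower. Rps6 at 1.77 (SE 0.50, limma adjusted p = 0.053) was the largest without a call. Of 15 cytosolic aminoacyl-tRNA synthetases, which charge tRNAs, 3 were higher, namely Eprs at 1.02, Gars at 1.18 and Rars at 0.79, and the median was 0.14. Among poly(A)-binding proteins and partners 1 of 3 was higher, Paip2, an inhibitor of PABP, at 1.72, beside Pabpc1 at 0.92, which did not pass. The rescue factors Pelo, at 0.80, and Abce1, which recycles ribosomes, at 0.60, were the 2 called higher among 3 tested.

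Regulators of the factors and some related lists are given beside the same shares, 5.6% of all features higher and 5% lower. These lists are too short for their calls to be set apart from those shares. Of 6 genes of mTORC1 and the 4E kinases, 0 were higher and 1 was lower, the mTORC1 subunit Mlst8 at -0.55, and Larp1, a binder of terminal oligopyrimidine mRNAs, had the largest value, 1.38 (SE 0.71, limma adjusted p = 0.20), followed by the mTORC1 subunit Rptor at 0.75 (SE 0.44, adjusted p = 0.24). The ATF4 response, a program that follows phosphorylation of eIF2 alpha, had 5 genes tested, 0 called, 4 at an unadjusted p under 0.05, where 36.8% of features had one, and a median of -0.58. Its members with the largest sizes were Ddit3 at -0.71 and Trib3 at -0.69. Mitochondrial translation factors had 0 of 5 called and 1 at an unadjusted p under 0.05, beside the same 36.8% of features, with Mtrf1l at 0.58 and Mtrf1 at 0.44 the largest. Of the enzymes that hypusinate eIF5A, Dhps was tested and differed by -0.12.

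Cell type markers were set beside these values, again with 5.6% of all features higher and 5% lower in the difference. Fibroblast markers, of cells that may serve as feeders, had 5 of 11 genes higher and a median difference of 0.82, with pair medians of 0.46, -0.41 and -0.40 and array medians from 0.02 to 0.67 in NT1p14 with TBVp13, against -0.43 to -0.09 in NT1p12 with TBVp12. Pluripotency markers had 3 of 9 higher, a median difference of 0.77, and pair medians of -0.25, -0.51 and -0.22. As read, 6 of these 9 lay below 0 in all 3 pairs, against the 5.44% of features given above, and 0 passed the test over the 3 pairs (limma, 3 at an unadjusted p under 0.05). These are ratios, so no marker level is given by them and none can be read as absent. In such bulk RNA fewer cells of a type and less RNA per cell cannot be told apart, and the part of either marker list in the translation factor values was not tested.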

How the data were processed

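Total RNA of NT1 and TBV was hybridised to 13 two-colour arrays, 6 of them dye swaps, per the labels. The deposited table holds 1 value per probe and array, used as log2 ratios of the 2 channels and read as Cy5 over Cy3; what the authors did to make them, the log base and the numerator are not given in the sources used here. Of 19859 values of size 1 or more, 79 had decimals.

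Probes were named from the platform annotation (11723 with 1 symbol), and all 51 members were matched by Entrez ID to RefSeq. Each array was centred on its median, arrays with TBV in Cy5 were multiplied by -1, and probes of a gene were averaged. A pair value is the mean of the means of both dye orientations. Features with a value in all 3 independent pairs were tested against 0, and the difference between 2 pairs was fitted over arrays with a dye term (at least 2 values in each pair and 7 in all), with lmFit and eBayes of limma 3.58.1 (R 4.3.3), two-sided, with Benjamini-Hochberg adjustment over all features at 0.05. Both fits were tested on simulated data, where they missed most differences of size 1. A lack of calls therefore does not show that a difference is absent. Figures used matplotlib 3.10.9 in Python 3.11.15.

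Members, lists and tests were chosen with earlier results of these data known. Array values are given for members core to each step, those with 1 sign in all 3 pairs and the 6 with the smallest p in the difference; Eif1, Eif2s1, Eif3c, Eif4g1 and Eif2ak3, also core, were not analysed here. From other lists the called genes and the largest values are named, and further genes were named after their values were seen. The table carries no intensities, so the number of arrays limits the precision, and p-values measure the spread among repeat arrays or preparations of what the labels give as 1 NT1 line and 1 TBV line. Alternatives changed the replicate unit, dye orientation, centring, scaling, probe averaging, whole numbers, missing values, the classes, the arrays left out and the signs of NT1p14 with TBVp13.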

Additional observations from a re-analysis of the deposited data

Results flagged for a closer look

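In groups of 4 or 5 arrays, 1 array stood far from the others for 6 members. In NT1p14 with TBVp13, array 4 read 1 for Eef1b2 and 1 for Eif1ax, where the other arrays read 0. In NT1p12 with TBVp12, Eef1g read 0 on array 3 where the others read -1, Eef2k read -2 on array 1 where the others read 0, Eif5a read 1 on array 2 where the others read 0, and Eif5b read -3 on array 1 where the others read 0. All of these are whole numbers, and the groups had no spread apart from that array. The median of the initiation factors on array 4 of NT1p14 with TBVp13 was 0.51, against 0.05 to 0.17 on the other arrays. Of 43 groups examined 7 were noted in this way, where chance nominally gives about 1 in 20, a rate that need not hold for whole numbers.

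The ratio of NT1 over TBV in NT1p14 with TBVp13 differed from that in NT1p12 with TBVp12 for 12 members (limma, adjusted p under 0.05). The differences were 0.98 for Eef1b2, 1.77 for Eef1g, 1.5 for Eif1a, 1.18 for Eif1ax, 1.36 for Eif2s3x, 0.89 for Eif3a, 0.73 for Eif3d, 3.10 for Eif3h, 0.94 for Eif4b, 0.84 for Eif4e, 0.79 for Etf1 and -0.73 for Eef1a2.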

How the results depend on the processing

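Over the 3 pairs, 0 members passed under every alternative run; over all features 8 passed with the 13 arrays as independent samples and 2 with the source pair as a random block, against 0. The difference of NT1p14 with TBVp13 from NT1p12 with TBVp12 called 11 members higher, 1 lower and 1503 features in all. Leaving out 1 array at a time gave 0 to 13 members higher, 0 to 1 lower and 0 to 2441 features. Without a dye term there were 4 higher, 0 lower and 298 features; with the signs of NT1p14 with TBVp13 all turned, chosen after seeing the data, 0, 0 and 0. Probes with no whole number gave 2 higher, 1 lower and 1824 features, values on all 9 arrays 9 higher, 1 lower and 2300 features, and a fit of all 13 arrays 14 higher, 1 lower and 3434 features. With signs turned, the difference was 0.13 for Eef1a2, -0.27 for Eef1g and -0.0618 for Eif3a, none called, a change of direction.

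Elongation minus initiation moved by more than the spread in these cases: over the 3 pairs, to 0.19 from arrays with TBV in Cy5 and to 0.0876 with signs turned; in NT1p12 with TBVp12, to 0.23 from probes with no whole number and to 0.19 with Eif5a counted as an elongation factor; in NT1 1 with TBV2, to 0.0425 from the array with TBV in Cy5, to 0.00363 from probes with no whole number and to -0.00512 with Eif5a moved. The causes were not tested. No paired analysis was possible because array numbers within a source pair are names only and do not link arrays across pairs. The lost decimals limit small ratios, and signal over background is unknown.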

Other observations

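Several genes of different function had the same fitted difference of NT1p14 with TBVp13 from NT1p12 with TBVp12, down to the standard error. Gars, Rpl32, Rpl36a and the pluripotency marker Zfp42 all stood at 1.18 with an SE of 0.32, and Rps4x and Lefty1 at 1.59 with an SE of 0.27. Eif1ax and Lin28a, a further pluripotency marker, shared 1.18 with an SE of 0.22. In the same way Eif2s3x shared 1.36 with an SE of 0.24 with S100a4, a fibroblast marker. On the arrays of these pairs Eif1ax and Eif2s3x read whole numbers only. Few patterns are possible with whole numbers, so an equal fit was not read as shared behaviour of the genes.

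Of 5 genes of the ATF4 response measured in both pairs, 4 were below 0 in NT1p14 with TBVp13 and above 0 in NT1p12 with TBVp12, as were 37.6% of all features (5629 of 14956) and 6 of 43 translation factors. Chac1 was at -0.30 and 0.31, and Atf5 at -0.27 and 0.26, in these pairs. With 0 of the 5 past the threshold in limma (4 at an unadjusted p under 0.05, against 36.8% of features), these are values only.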
